A study of Homo sapiens with 12 samples.

Results

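The genes of oxidative phosphorylation (OXPHOS) that are encoded in the nucleus were followed through fatty acid exposure of K562 cells, a human leukemia line with erythroid and megakaryocytic features. Members were taken by symbol: NDUF genes of classes A, B, C, S and V, the 4 SDH genes, UQCR genes, the COX4 to COX8 genes and the ATP5 genes A to J. Of 86 matching symbols, 77 had a mean of at least 1 FPKM (fragments counted for a gene, scaled to its transcript length and to the size of the library) over 11 libraries, out of 23153 genes shared by all tables and 11075 at that level. Complex I held 37 of them, complex II 4, complex III 8, complex IV 11 and complex V 13. The other 4 were kept apart: COX4NB is now EMC8, of an endoplasmic reticulum membrane complex, UQCRHL is a retrocopy of UQCRH, and ATP5J2-PTCD1 and NDUFC2-KCTD14 are read-through transcripts. The members just inside the threshold were NDUFC2-KCTD14 (1.10 FPKM), UQCRHL (1.58 FPKM) and ATP5J2-PTCD1 (1.59 FPKM), and those just outside were UQCRBP1 (0.70 FPKM), NDUFA4L2 (0.68 FPKM) and COX7B2 (0.62 FPKM).

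Each library held RNA that had been pooled from 3 biological replicates, and each of 3 experiments had a table of its own. Experiment 1 compared wild-type (WT) cells given palmitoleate, WT cells given palmitate and untreated WT cells. Experiment 2 compared WT cells given both acids, GPAT4ko cells given palmitate, WT cells given palmitate and untreated WT cells. GPAT4ko is a knockout of GPAT4, an acyltransferase of the first step of glycerolipid synthesis. Experiment 3 compared RNF213kd cells (a knockdown of a large ubiquitin ligase) given palmitate or untreated with WT cells given palmitate or untreated. Palmitate, a saturated fatty acid, was given at 0.2 mM on albumin. The labels state an exposure of 20 h, while the legends of the tables for experiments 2 and 3 state 16 h. Palmitoleate has as many carbons as palmitate and a double bond, and its dose when given alone is not stated in the sources used here. The labels say neither whether GPAT4ko cells are a single clone nor how RNF213 was knocked down, and the labelled untreated GPAT4ko library was not analysed here, as no column was matched to its name. The table of experiment 2 also holds 2 libraries that match no label, which were not used.

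Oxidative phosphorylation moves electrons from NADH and succinate through complexes I, II, III and IV of the inner mitochondrial membrane to oxygen, and complex V uses the proton gradient that builds up to make ATP. Complexes I, III, IV and V combine nuclear subunits with a few that the mitochondrial genome encodes, whereas all subunits of complex II, which is also the succinate dehydrogenase of the citric acid cycle, are nuclear. Complexes I, III and IV also assemble into supercomplexes. Fatty acids taken up by a cell can be oxidised in the same mitochondria, which feeds electrons into this chain.

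Summed FPKM lay between 612355 and 821188 per library, and 10495 to 11108 genes reached 1 FPKM. Read counts are not in the tables, so the depth is unknown and no counting interval was computed. All 10 fixed K562 markers were at 1 FPKM or more in every library, and their sum ranged from 2163 to 11020 FPKM. Markers of B cells and endothelial cells (3 each) were all below 1 FPKM in every library, as were 2 of 3 fibroblast markers. In every library 1 of 3 T cell, 1 of 3 monocyte and 2 of 3 epithelial markers reached 1 FPKM. The T cell markers summed to between 12 and 39.6 FPKM, the monocyte markers to between 19.9 and 57.8 FPKM and the epithelial markers to between 122 and 590 FPKM, and their part in the results was not tested. In bulk RNA, fewer cells of a type and less RNA per cell cannot be told apart, and an FPKM is a level relative to the rest of the library.

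Levels within the set covered a wide range in these cells. By mean FPKM, which is per length, UQCRH, the hinge protein of complex III, was highest with 3054 FPKM. The small subunits ATP5E of complex V (1881 FPKM), COX7C of complex IV (1829 FPKM) and NDUFA1 of complex I (1017 FPKM) led their complexes. Complex II was the least abundant, with SDHB, the iron-sulfur subunit, at 217.5 FPKM and SDHA, the flavoprotein that oxidises succinate, at 57.3 FPKM. NDUFA10 was the lowest complex I member at 17.5 FPKM. The muscle and tissue-restricted isoforms COX4I2, COX6A2, COX7A1, COX6B2 and COX8C were below 0.2 FPKM on average, while their broadly expressed paralogues COX4I1 (535 FPKM), COX6A1 (778.5 FPKM), COX7A2 (423 FPKM), COX6B1 (792 FPKM) and COX8A (842 FPKM) were all high.

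Together the 77 members took a smaller share of summed FPKM in each palmitate library of WT cells than in the untreated library of its experiment. The share was 4.07% with palmitate against 4.72% untreated in experiment 1, 2.84% against 4.26% in experiment 2, and 3.79% against 4.73% in experiment 3. In experiment 1 the summed FPKM of the members was almost equal, at 33251 with palmitate against 33256 untreated, while the total of the library was 817362 with palmitate against 704359 untreated. In experiments 2 and 3 the members' sum itself was lower, at 20451 and 23229 with palmitate against 31152 and 29004 untreated. On the log2(FPKM + 1) scale, which understates changes of low genes, the median ratio of palmitate over untreated was -0.04, -0.61 and -0.30 over the members in experiments 1, 2 and 3, against -0.01, -0.05 and -0.03 over all 11075 genes. The mean of the 3 medians was -0.32 ± 0.29 (SD, n = 3 experiments), so its spread between experiments was almost as large as the mean itself. The median of the members' mean ratios was -0.31, with -0.49 when experiment 1 was left out and -0.18 when experiment 2 was left out. In all 3 experiments 38 of 77 members were lower with palmitate and 1 was higher, whereas 29.6% of all tested genes were lower in all 3 and 25.9% were higher.

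**Figure D1:**
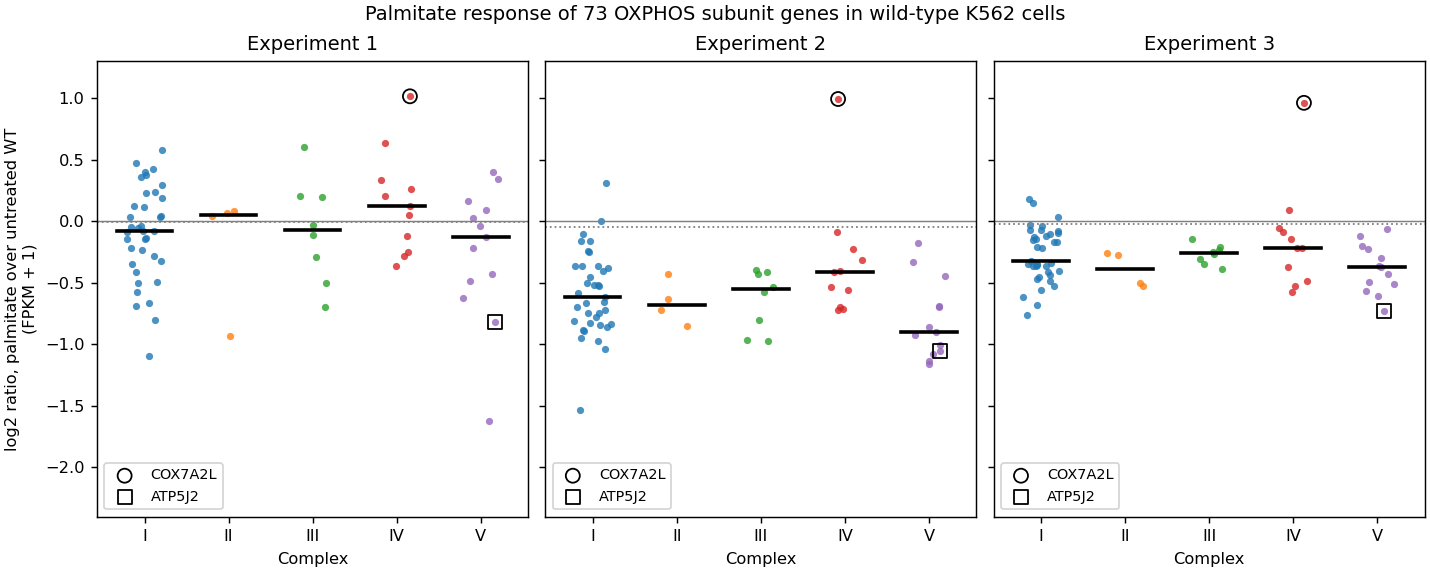
Log2 ratio of FPKM + 1 in WT cells given palmitate over untreated WT cells (vertical axis) for the 73 members that belong to complexes I to V (horizontal axis), with 1 point per gene and 1 panel per experiment. Black bars are medians of a complex and the dotted line is the median of all tested genes. COX7A2L (circle) lies near 1 in all 3 panels, and most other members lie below 0 in experiments 2 and 3 but on both sides of 0 in experiment 1.

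Tested gene by gene against the spread between experiments, 2 members passed. COX7A2L rose and ATP5J2 fell, at an adjusted p under 0.05 in limma with Benjamini-Hochberg adjustment over all 11075 genes. At that threshold 6.59% of all tested genes were higher and 3.84% were lower, which is the background for the single call in each direction among 77 members. At an unadjusted p under 0.05 there were 17 members, or 22.1%, against 32.6% of all tested genes.

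COX7A2L encodes SCAF1, a relative of the complex IV subunit COX7A2 that joins complexes III and IV in supercomplexes. With palmitate it was at 238, 232 and 175 FPKM in experiments 1, 2 and 3, against 117, 116 and 89.5 FPKM in untreated cells. Every palmitate library was thus above every untreated library. Its mean log2 ratio was 0.99 ± 0.18 (SE, n = 3), a 1.98-fold rise with an adjusted p of 0.0317, and the single ratios of 1.01, 0.99 and 0.96 were close to each other. Leaving out an experiment moved the ratio only between 0.98 and 1.00 but raised the adjusted p to between 0.0543 and 0.183.

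COX7A2L was also set beside COX7A2 inside each library, a pair that was chosen after the values were seen and carries no test. As COX7A2L was picked for its rise, a higher value with palmitate follows from the ratios of the 2 genes and is no added support. For each 100 FPKM of COX7A2, its paralogue, there were 51.8, 65.7 and 39.2 FPKM of COX7A2L in the palmitate libraries of WT cells in experiments 1, 2 and 3, against 32.2, 31.0 and 21.3 FPKM in untreated cells. COX7A2 itself had a mean log2 ratio of 0.11 ± 0.18 (SE, n = 3; limma adjusted p = 0.702). The 2 genes have similar GC content, at 43.5% and 42.5% of the longest transcript, but that transcript has 3056 bases for COX7A2L and 914 for COX7A2.

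ATP5J2, the f subunit of the membrane part of ATP synthase, was among the most abundant members. Its level was 1604, 659 and 1236 FPKM with palmitate in experiments 1, 2 and 3, against 2836, 1373 and 2056 FPKM in untreated cells. It was lower with palmitate in each experiment, although the levels of the groups overlapped across experiments. The mean log2 ratio was -0.87 ± 0.17 (SE, n = 3), with ratios of -0.82, -1.06 and -0.73 and an adjusted p of 0.0376 in limma. With the trend on GC content removed, its ratio was -0.66 and its adjusted p 0.0607, so this call is lost. It shares exons with the read-through transcript ATP5J2-PTCD1, which was at most 3.57 FPKM in any library.

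**Figure D2:**
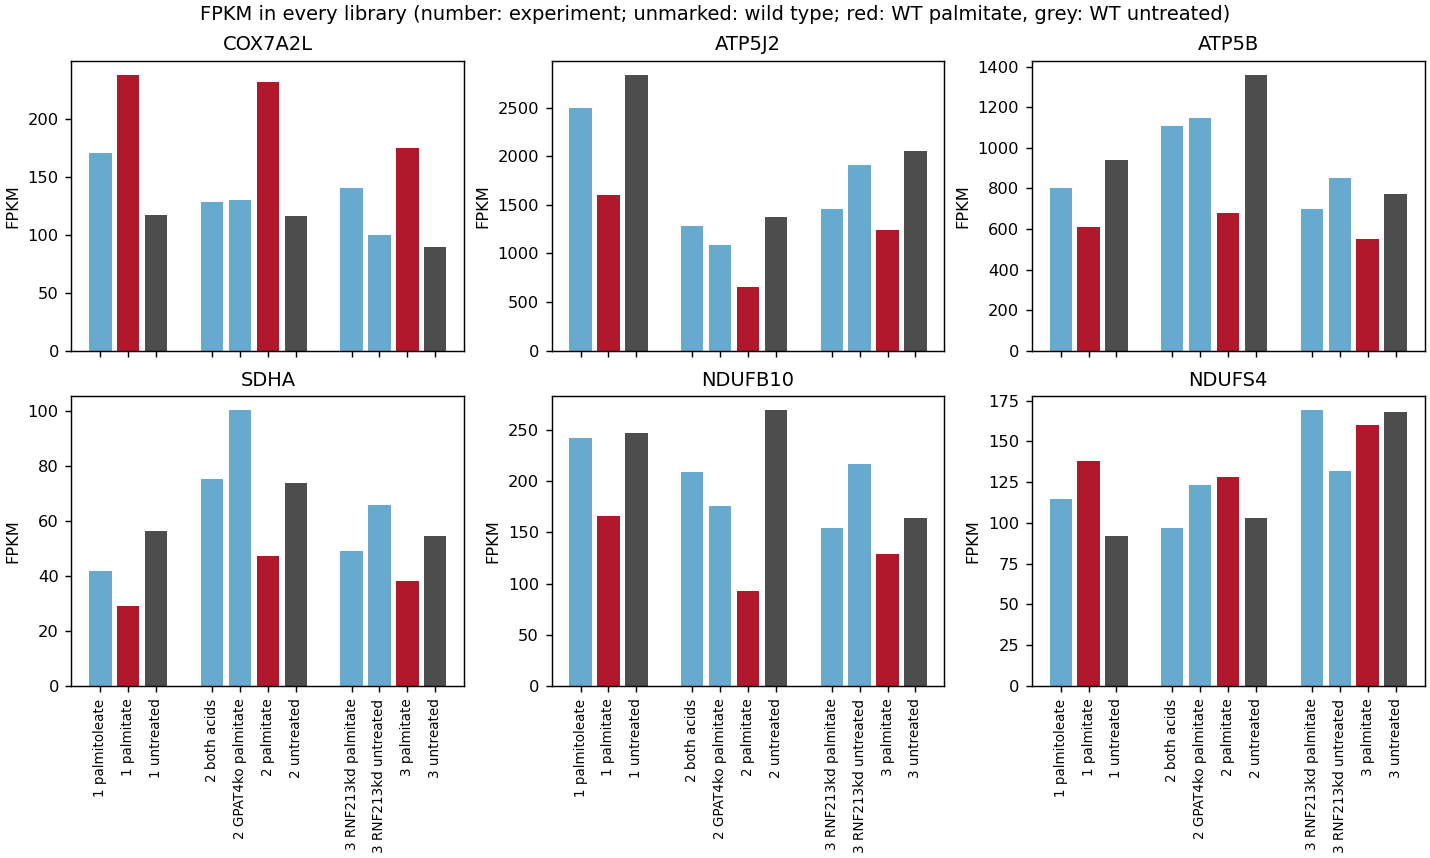
FPKM (vertical axes, from 0) of 6 members in each of the 11 libraries, ordered by experiment. Red bars are WT cells given palmitate, grey bars untreated WT cells and blue bars the other groups. COX7A2L is highest in the WT palmitate library of each experiment, while ATP5J2, ATP5B, SDHA and NDUFB10 are lowest there. NDUFS4 has no common order.

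Complex V, as the symbol rule draws it, had medians of -0.13, -0.90 and -0.38 in experiments 1, 2 and 3. These were the lowest of the 5 complexes in experiments 1 and 2, while complex II was lowest in experiment 3 (-0.39). The rule misses the ATP synthase subunits ATP5L, ATP5O, USMG5 and C14orf2. Their ratios were 0.41, 0.12, 0.49 and 0.18 in experiment 1 and below 0 in experiments 2 and 3. The rank of complex V therefore covers the 13 members only. With the trend on GC content removed, the order of these complexes turned: complex II was lowest in experiment 1 (-0.19, with -0.16 for complex V) and complex V in experiment 3 (-0.32, with -0.31 for complex II). In complex V, all 13 members were below 0 in experiments 2 and 3. Set against complex IV, its median was lower by 0.26, 0.49 and 0.16 in experiments 1, 2 and 3. No p was computed for this difference, since members of a complex are not replicates. ATP5B, the catalytic beta subunit, was at 608, 677 and 550 FPKM with palmitate, against 938, 1359 and 774 FPKM in untreated cells. It was lower with palmitate in each experiment, by -0.71 ± 0.19 (SE, n = 3) on the log2 scale, and did not pass the test (limma adjusted p = 0.0646). ATP5D, the delta subunit of the central stalk, had the lowest mean ratio of all members, -0.98 ± 0.30 (SE, n = 3; limma adjusted p = 0.0868). Its 3 ratios, -1.62, -1.08 and -0.23, were far apart, and it is the second most GC-rich member, with 63.9% GC. ATP5E and ATP5H, of the stalks, had ratios near 0, at -0.08 and -0.04.

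The c subunit, whose ring turns in the membrane as protons pass, is encoded by ATP5G1, ATP5G2 and ATP5G3, which differ in their targeting peptides. ATP5G1 had a mean log2 ratio of -0.66 ± 0.22 (SE, n = 3; limma adjusted p = 0.105) and ATP5G3 -0.73 ± 0.21 (adjusted p = 0.0794), whereas ATP5G2 had -0.18 ± 0.17. Within the c-subunit mRNA of a library, ATP5G2 gave 51.2%, 57.9% and 46.8% of the summed c-subunit FPKM in WT palmitate libraries of experiments 1, 2 and 3, against 45.6%, 43.9% and 39.4% in untreated libraries. The WT palmitate library had the highest ATP5G2 share of its experiment in all 3. These shares within libraries were chosen for display after the values were seen, and carry no test.

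**Figure D3:**
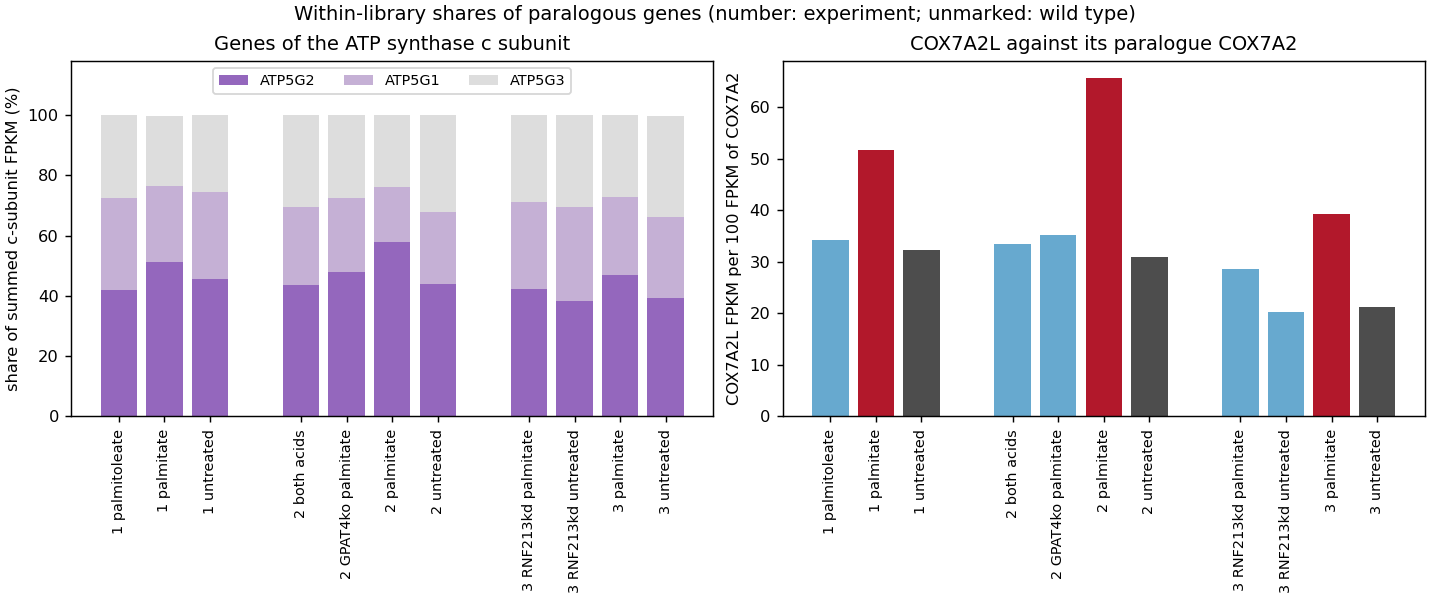
Left, share of the summed FPKM of ATP5G1, ATP5G2 and ATP5G3 that each gene gives in each library (percent, stacked). Right, FPKM of COX7A2L for each 100 FPKM of COX7A2, with WT palmitate in red, untreated WT in grey and the other groups in blue. Both the ATP5G2 share and the COX7A2L value are highest in the WT palmitate library of each experiment.

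Complex IV had the highest medians of the 5 complexes in all 3 experiments, at 0.13, -0.41 and -0.22. Apart from COX7A2L, its members ran from COX5B, with a mean log2 ratio of -0.47, to COX7A2, with 0.11. COX4I1, a subunit added early to the assembling core, had -0.11 ± 0.17, and COX8A, a small membrane subunit, had -0.30 ± 0.17 (SE, n = 3 each). COX7C, the most abundant, was at 2584, 1327 and 1029 FPKM with palmitate in experiments 1, 2 and 3, against 2153, 1957 and 1438 FPKM in untreated cells. It was thus higher with palmitate in experiment 1 and lower in experiments 2 and 3. NDUFA4 carries a complex I name but is now placed in complex IV. Its ratio was -0.25 ± 0.20 (SE, n = 3), and the median of mean ratios of complex IV was -0.25 with it and -0.26 without it.

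Complex I had medians of -0.08, -0.61 and -0.32, and 19 of its 37 members were lower in all 3 experiments. The 7 core subunits, which carry the electron path from NADH, and the 30 accessory subunits had median mean ratios of -0.42 and -0.29. The core median was the lower one only in experiment 1, at -0.41 against -0.05. In experiments 2 and 3 the order was reversed, with -0.52 and -0.145 for core against -0.63 and -0.33 for accessory subunits. NDUFV1, the NADH-binding flavoprotein, was at 66.0, 99.0 and 70.1 FPKM with palmitate, against 105, 191.8 and 95.4 FPKM in untreated cells. Each palmitate value was below that of its own experiment, with a mean log2 ratio of -0.68 ± 0.20 (SE, n = 3; limma adjusted p = 0.0777). The largest core subunit, NDUFS1, behaved unlike it, with 38.6, 41.2 and 32.0 FPKM with palmitate against 32.8, 41.2 and 34.8 FPKM untreated, and a ratio of 0.04 ± 0.20. NDUFB10, an accessory subunit of the membrane arm, had the lowest complex I ratio, -0.82 ± 0.28 (limma adjusted p = 0.105), at 166, 92.4 and 128.5 FPKM with palmitate against 247, 269.5 and 164 FPKM untreated. NDUFS4, an accessory subunit whose loss can cause Leigh syndrome, was the highest with 0.27 ± 0.21 (adjusted p = 0.403), and its 3 ratios of 0.58, 0.31 and -0.07 did not share a sign.

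Complex II had medians of 0.05, -0.68 and -0.39, and the first of these was -0.19 with the GC trend removed. SDHA was at 29.0, 47.3 and 38.0 FPKM with palmitate in experiments 1, 2 and 3, against 56.3, 73.9 and 54.3 FPKM in untreated cells. Every palmitate library was below every untreated library, and the mean log2 ratio was -0.69 ± 0.20 (SE, n = 3), which did not pass the test (limma adjusted p = 0.076). SDHA has several near-identical pseudogenes, so its level depends on how the authors assigned shared reads. SDHB (-0.31), and the membrane anchors SDHC (-0.22) and SDHD (-0.43), were lower with palmitate in experiments 2 and 3 but had ratios from 0.04 to 0.08 in experiment 1.

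Complex III had medians of -0.07, -0.55 and -0.26, and all 8 members were below 0 in experiments 2 and 3. UQCR10, a small membrane subunit, had the largest ratio of this complex, -0.60 ± 0.21 (SE, n = 3; limma adjusted p = 0.118). UQCRC1 and UQCRC2, the core proteins on the matrix side, had -0.45 and -0.24, and UQCRFS1, the Rieske iron-sulfur protein, had -0.42. UQCRH was at 4197, 1737 and 2404 FPKM with palmitate, against 3667, 2589 and 2836 FPKM in untreated cells, which puts palmitate higher in experiment 1 and lower in the other two experiments.

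The palmitate ratio moved with the base composition of transcripts in experiment 1. Over the 77 members, Spearman's rho between the GC content of the longest transcript and the palmitate ratio was -0.64, -0.08 and 0.23 in experiments 1, 2 and 3, and over 10628 genes with a known GC content it was -0.63, -0.02 and 0.15. These are descriptions across genes of single libraries, which are not independent. With a lowess trend on GC content removed, the median ratios of the members were -0.05, -0.54 and -0.27, and 40 members were lower in all 3 experiments, against 33.2% of genes. The corrected fit called 7 members: COX7A2L rose, while SDHA, NDUFB6, ATP5B, ATP5D, ATP5F1 and ATP5G3 fell, where that fit called 15.3% of all its genes higher and 12.3% lower. Without small RNA and SNAR genes 8 members were called, 1 higher and 7 lower, against 11.3% and 11.1% of all genes in that fit. Neither count of members exceeds the background of its own fit. What part GC content has in the uncorrected ratios was not tested.

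**Figure D4:**
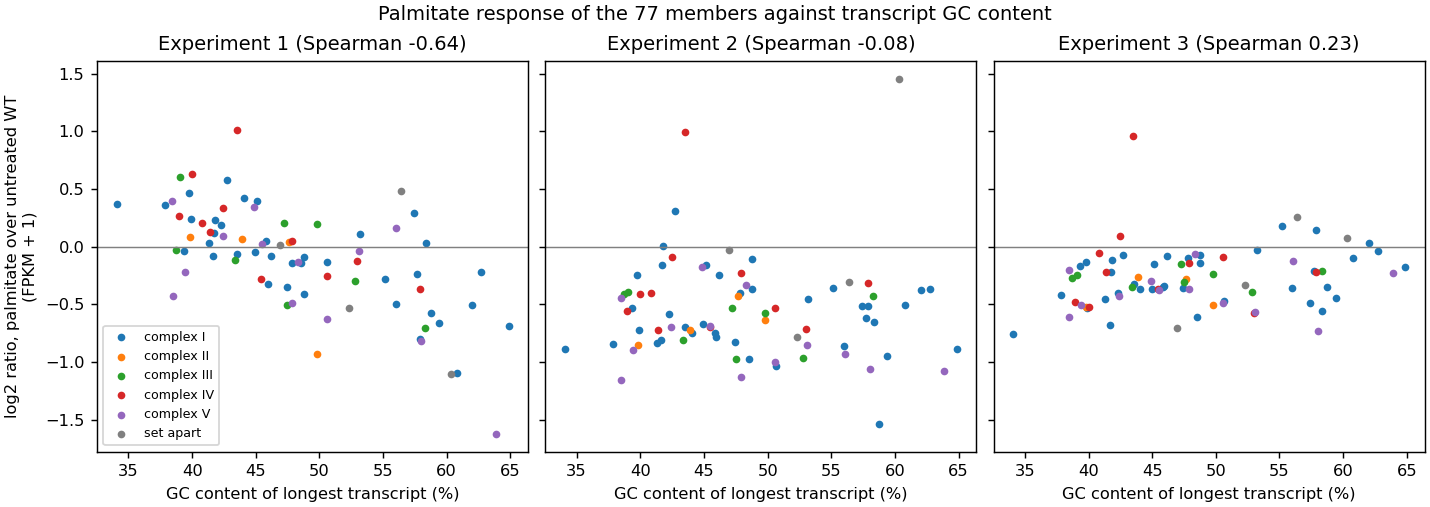
Log2 ratio of palmitate over untreated WT cells (vertical axis) against the GC content of each member's longest transcript in percent (horizontal axis), with 1 panel per experiment and points coloured by complex. In experiment 1 the points slope down with GC content (Spearman -0.64), and in experiments 2 and 3 they do not (-0.08 and 0.23).

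Genes that work beside the subunits were read from 4 lists, and limma called 0 of their members at an adjusted p under 0.05. At an unadjusted p under 0.05 were 6 of 17 citric acid cycle genes, 8 of 35 assembly factors, 4 of 15 regulators and 3 of 11 other OXPHOS genes, where 32.6% of all tested genes were. The 17 genes of the citric acid cycle and pyruvate dehydrogenase had a median mean ratio of -0.40. Of these 17 genes, 12 were lower in all 3 experiments, against 29.6% of all tested genes. IDH3B, a subunit of the NAD-dependent isocitrate dehydrogenase, was lowest with -0.82 ± 0.23 (SE, n = 3; limma adjusted p = 0.0731). The 35 tested assembly factors had a median of -0.31, and their median in experiment 1 was -0.01. BCS1L, which inserts the Rieske protein into complex III, was at -0.74 ± 0.21 (adjusted p = 0.0744). In all 3 experiments 17 assembly factors were lower and 3 were higher, among the latter COX19 (0.47) and TTC19 (0.36). The 15 tested regulators of mitochondrial gene expression and biogenesis had a median of -0.34. Among them PPRC1, a coactivator related to PGC-1, had -0.94 ± 0.31 (adjusted p = 0.0975). TFAM, which packages mitochondrial DNA, had -0.68 ± 0.32 (adjusted p = 0.198), with a ratio of 0.20 in experiment 1. NRF1, a regulator of respiratory genes, had -0.34 ± 0.21 (adjusted p = 0.314). Others had mean ratios above 0: GABPB1 had 0.44 ± 0.20 (adjusted p = 0.192), GABPA 0.13 and MYC 0.01. The ratios in experiments 1, 2 and 3 did not share a sign for GABPA (0.74, -0.09 and -0.27) or MYC (-0.41, 0.41 and 0.02). Of the 15 regulators, 6 were lower in all 3 experiments and 1, GABPB1, was higher, against 29.6% and 25.9% of all tested genes.

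The fourth list holds 11 tested OXPHOS genes that the symbol rule misses, with a median of -0.06. CYC1, the cytochrome c1 of complex III, had -0.91 ± 0.28 (SE, n = 3; limma adjusted p = 0.0908) and ETFDH, which passes electrons from fatty acid oxidation to ubiquinone, had 0.75 ± 0.23 (adjusted p = 0.0851). ETFDH was higher with palmitate in all 3 experiments, with ratios of 1.15, 0.60 and 0.49. The 77 mitochondrial ribosomal protein genes had lower medians than the OXPHOS members, at -0.16, -0.79 and -0.40 in experiments 1, 2 and 3. The 76 cytosolic ribosomal protein genes had medians of 0.32, 0.10 and 0.20.

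The remaining comparisons rest on 1 library per group. They have no replicate check, and their intervals and p-values use the spread of the 3 WT palmitate ratios, on the assumption that lone libraries vary alike. No member had an adjusted p under 0.05 in any of them. Here a gene counts as past the threshold when it differs by 1.5-fold or more, and comparisons within an experiment share libraries, so their values stand side by side and are not independent.

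Palmitoleate alone was set against untreated cells to ask what the unsaturated acid does to these genes. The members took 5.21% of summed FPKM with palmitoleate, against 4.72% untreated, and their median log2 ratio was 0.26, with 0.40 for complex IV and 0.21 for complex V. Of the 77 members 58 were above 0, beside 5616 of all 11075 tested genes (median 0.01). The rise was not particular to the members. Cytosolic ribosomal protein genes had a median of 0.375 (64 of 76 above 0) and mitochondrial ones 0.15 (51 of 77). Past 1.5-fold, 11 members were higher and 4 lower, where 6.23% of all tested genes were higher and 18.5% lower. The highest were COX6C (0.83), UQCRB (0.82) and NDUFB1 (0.80), and the lowest were ATP5D (-0.99), NDUFS7 (-0.95) and NDUFS8 (-0.60). This ratio moved with GC content, with a Spearman's rho of -0.59 over the members and -0.75 over all genes with a known value. The median was 0.21 once that trend was removed.

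Palmitoleate against palmitate compares acids of equal chain length, with and without a double bond, and the doses may differ. The members took 5.21% of summed FPKM with palmitoleate, against 4.07% with palmitate. Of the 77 members 74 had a positive log2 ratio, with a median of 0.31, beside 5770 of all 11075 tested genes (median 0.02). Mitochondrial ribosomal protein genes had a median of 0.31 (70 of 77 positive) and cytosolic ones -0.01 (35 of 76). Past 1.5-fold, 6 members were higher and 0 lower, against 7.77% and 11% of all tested genes. NDUFA2 and NDUFS5 (0.65 each) and ATP5G1 (0.64) were highest. COX7A2L was lowest, at 171 FPKM with palmitoleate against 238 FPKM with palmitate, a log2 ratio of -0.48 with a 95% interval from -1.23 to 0.28. For ATP5J2 the ratio was 0.64 with an interval from -0.08 to 1.36.

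With both acids, the members lay nearer to untreated cells than to cells given palmitate alone. The members took 4.36% of summed FPKM with both acids, against 2.84% with palmitate alone and 4.26% untreated. Relative to palmitate alone, the median log2 ratio was 0.44, with 0.71 for complex V, 0.53 for complex II, 0.46 for complex III, 0.44 for complex I and 0.34 for complex IV. Past 1.5-fold, 28 members were higher and 2 lower, against 21.6% and 19.1% of all tested genes. NDUFB10 was highest, at 209 FPKM with both acids against 92.4 FPKM with palmitate, a log2 ratio of 1.17. ATP5G1 followed with 1.06 and NDUFA5, an accessory subunit of the matrix arm, with 1.02. COX7A2L was lowest among members of at least 5 FPKM, at 128 FPKM with both acids against 232 FPKM with palmitate, a ratio of -0.85 with an interval from -1.61 to -0.10 and an adjusted p of 0.244 in limma.

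Against untreated cells, both acids together gave a median log2 ratio of -0.13 over the members. With the trend on transcript length removed, this median was -0.05. Of the 77 members 64 were below 0, beside 5859 of all 11075 tested genes, whose median was -0.02. So were 76 of 77 mitochondrial ribosomal protein genes (median -0.24) and 75 of 76 cytosolic ones (median -0.18). Past 1.5-fold, 1 member was higher and 0 lower, against 3.96% and 1.83% of all tested genes. The member past the threshold was the low-level ATP5J2-PTCD1, at 1.09 FPKM with both acids and 0.175 FPKM untreated. NDUFB10 and NDUFS3 (-0.36 each) were lowest among members of at least 5 FPKM, and NDUFB5 (0.15), COX7A2L (0.14) and NDUFA5 (0.14) were highest.

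**Figure D5:**
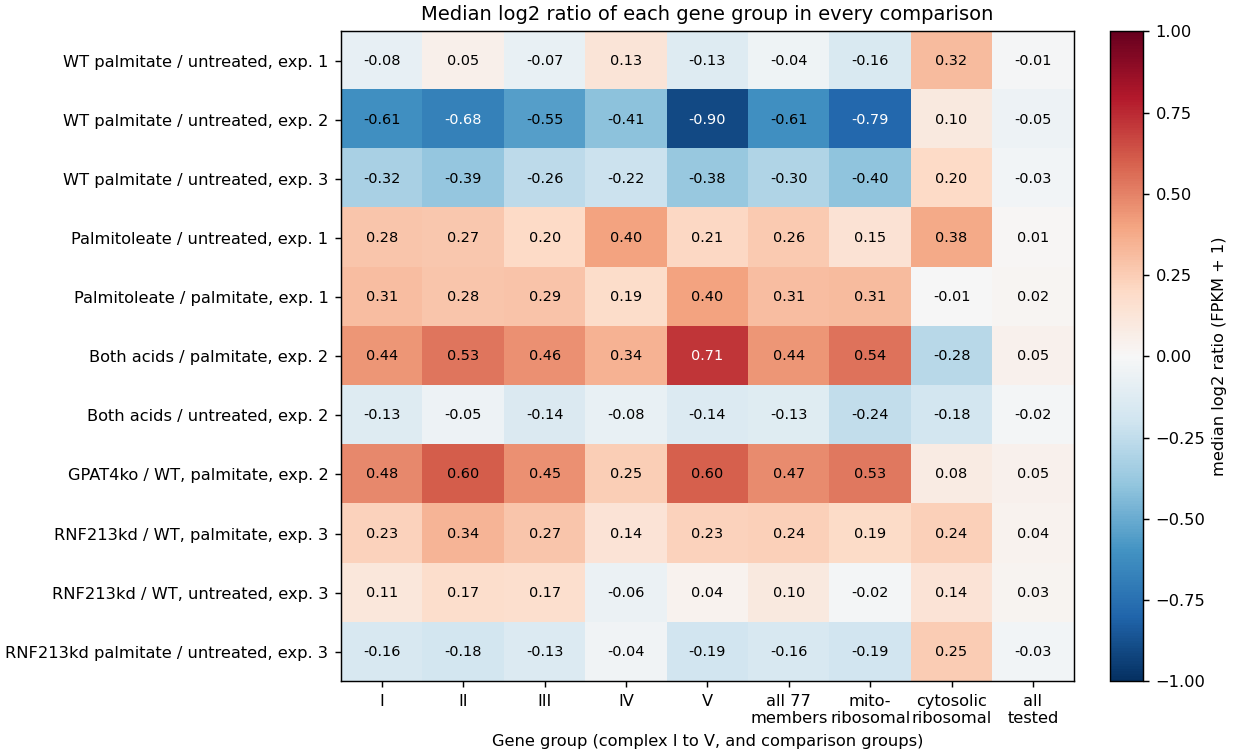
Median log2 ratio of FPKM + 1 (colour and number) for complexes I to V, all 77 members, mitochondrial and cytosolic ribosomal protein genes and all tested genes (columns) in each comparison within an experiment (rows). OXPHOS and mitochondrial ribosomal genes are lowest for palmitate over untreated WT cells in experiment 2 (-0.61 and -0.79), and positive where both acids (0.44 and 0.54) or GPAT4ko cells (0.47 and 0.53) are set against WT palmitate cells.

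GPAT4 itself, listed as AGPAT6, was at 8.77 FPKM in GPAT4ko cells with palmitate, against 20.0 FPKM in WT cells with palmitate. The OXPHOS members took 3.84% of summed FPKM in GPAT4ko cells given palmitate, against 2.84% in WT cells given palmitate. Of the 77 members 71 had a positive log2 ratio, with a median of 0.47, beside 5854 of all 11075 tested genes (median 0.045). Mitochondrial ribosomal protein genes had a median of 0.53 (69 of 77 positive) and cytosolic ones 0.08 (53 of 76). Past 1.5-fold, 24 members were higher and 2 lower, against 18.7% and 16.4% of all tested genes. Complexes II (0.60) and V (0.59) had the highest medians and complex IV (0.25) the lowest. The highest members were NDUFS6 (1.28), a zinc-binding subunit, NDUFV2 (1.10), a core iron-sulfur subunit, and SDHA (1.07).

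SDHA was at 100 FPKM in GPAT4ko cells with palmitate, above the 73.9 FPKM of untreated WT cells in that table. The same order held for NDUFS6, at 599.6 FPKM in GPAT4ko cells with palmitate, 246.5 FPKM in WT cells with palmitate and 388 FPKM in untreated WT cells. Summed over all members, GPAT4ko cells with palmitate stayed below untreated WT cells, at 28197 against 31152 FPKM. ATP5B, for example, was at 1147 FPKM in GPAT4ko cells with palmitate, against 1359 FPKM in untreated WT cells. COX7A2L was lower, at 129.7 FPKM in GPAT4ko cells given palmitate against 232 FPKM in WT cells given palmitate, a ratio of -0.83 with an interval from -1.59 to -0.08 (limma adjusted p = 0.366). The knockout was not analysed here without palmitate, so a difference of the line and a difference in its response cannot be told apart.

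RNF213 was at 1.54 FPKM in RNF213kd cells given palmitate and 1.39 FPKM in untreated RNF213kd cells, against 3.08 FPKM in WT cells given palmitate and 1.96 FPKM in untreated WT cells. With palmitate in both lines, RNF213kd over WT cells had a median log2 ratio of 0.24 over the members. Of the 77 members 72 were above 0, beside 6131 of all 11075 tested genes, whose median was 0.035. The shift was not particular to the members. Cytosolic ribosomal protein genes had a median of 0.235 (75 of 76 above 0) and mitochondrial ones 0.19 (70 of 77). Past 1.5-fold, 0 members were higher and 0 lower, against 2.39% and 3.06% of all tested genes. NDUFB7 (0.44), ATP5G1 (0.42) and NDUFA10 (0.42) were highest, and COX7A2L (-0.32), NDUFB4 (-0.07) and ATP5D (-0.06) lowest. The members took 4.05% of summed FPKM in RNF213kd cells given palmitate, against 3.79% in WT cells given palmitate.

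Without fatty acid the same lines had a median ratio of 0.10, with 1 member higher and 0 lower past 1.5-fold, against 2.58% and 1.07% of all tested genes. That member was NDUFA7 (0.60), an accessory subunit, at 144 FPKM in untreated RNF213kd cells against 94.5 FPKM in untreated WT cells. NDUFA5 was lowest with -0.40. With the trend on transcript length removed, the median was 0.03. This ratio rose with GC content, with a Spearman's rho of 0.57 over the members and 0.63 over all genes with a known value.

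Within RNF213kd cells, palmitate over untreated gave a median log2 ratio of -0.16 over the members, beside -0.30 for WT cells in the same experiment, and -0.09 with the trend on transcript length removed. Past 1.5-fold, 0 members were higher and 0 lower, against 7.14% and 3.83% of all tested genes. COX7A2L was again the highest member, at 140.5 FPKM with palmitate against 100.0 FPKM untreated in RNF213kd cells, a ratio of 0.49 with an interval from -0.27 to 1.24. ATP5D (-0.58), NDUFB10 (-0.49) and NDUFA3 (-0.42) were lowest. The knockdown response minus the WT response of experiment 3 had a median of 0.14, and for COX7A2L it was -0.48 with an interval from -1.54 to 0.59 (limma adjusted p = 1), so a difference between the lines in this response was not shown.

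To describe what the subunits share in sequence, their promoters were searched for motifs of factors known to act on respiratory genes. RefSeq promoter windows from 250 bases before to 50 bases after the gene start (GRCh38.p14) were found for 61 of the 73 subunits. The NRF1 motif, GCGCATGCG on either strand, was in 10 of them (16.4%), against 4.17% of windows of tested genes and 2.1% of all windows. The YY1 motif AAGATGGCG was in 8 (13.1%), against 4.55% and 1.85%, and the ETS motif CCGGAAG, which GABPA binds, was in 18 (29.5%), against 21.8% and 10.7%. A motif of the stress factors ATF4 and CHOP, TGATGNAA, added after the values were seen, was in 1 (1.64%), against 1.56% and 3.67%. Median palmitate ratios with and without a motif were close to each other: -0.37 and -0.31 for NRF1, -0.33 and -0.34 for YY1, and -0.29 and -0.35 for ETS. A match of letters is a description and not a binding site.

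The sequences of 4 of these windows, cut to the first 10 bases after the start, show the range of these promoters. ATP5J (complex V, now ATP5PF) holds all 3 motifs apart from that of ATF4 and CHOP, and NDUFA8 (complex I) holds the NRF1 motif on both strands as a palindrome. COX7A2L, the member that rose, and NDUFB10, the complex I member with the lowest ratio, hold none of the 4 motifs. Capitals mark motifs. ATP5J lies on the minus strand at chr21:25735045-25735304, NDUFA8 on the minus strand at chr9:122159770-122160029, COX7A2L on the minus strand at chr2:42361208-42361467 and NDUFB10 on the plus strand at chr16:1959288-1959547.
ATP5J: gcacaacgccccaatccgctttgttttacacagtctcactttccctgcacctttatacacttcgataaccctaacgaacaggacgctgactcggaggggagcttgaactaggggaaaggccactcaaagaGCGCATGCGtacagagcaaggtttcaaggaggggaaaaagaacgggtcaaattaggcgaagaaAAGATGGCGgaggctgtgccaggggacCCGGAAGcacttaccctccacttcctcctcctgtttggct
NDUFA8: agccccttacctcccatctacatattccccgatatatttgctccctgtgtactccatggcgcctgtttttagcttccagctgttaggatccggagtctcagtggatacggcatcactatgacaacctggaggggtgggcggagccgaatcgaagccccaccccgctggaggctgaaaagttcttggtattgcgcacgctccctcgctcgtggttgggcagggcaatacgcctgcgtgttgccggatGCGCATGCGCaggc
COX7A2L: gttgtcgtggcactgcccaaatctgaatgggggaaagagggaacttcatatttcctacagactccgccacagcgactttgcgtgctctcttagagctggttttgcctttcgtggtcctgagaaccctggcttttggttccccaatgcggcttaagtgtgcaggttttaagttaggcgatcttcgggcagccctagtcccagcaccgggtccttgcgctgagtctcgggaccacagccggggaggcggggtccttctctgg
NDUFB10: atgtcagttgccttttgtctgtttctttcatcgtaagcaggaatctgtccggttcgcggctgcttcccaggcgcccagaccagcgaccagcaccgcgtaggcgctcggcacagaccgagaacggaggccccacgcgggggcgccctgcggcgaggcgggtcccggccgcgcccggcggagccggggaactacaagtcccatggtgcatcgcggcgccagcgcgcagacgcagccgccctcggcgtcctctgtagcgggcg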

How the data were processed

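Of 12 labelled K562 libraries, 11 were matched by name to values and analysed. Per the labels, libraries were made with a stranded poly(A) kit. TopHat2 was used for mapping to hg19 and Cuffdiff for quantification, per the submitters' processing notes, with versions not given in the sources used here. The deposited FPKM values were scaled by the authors between libraries of the same table, so ratios were formed only within a table. The table of experiment 2 also holds 2 libraries whose names match no label, which were not used.

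Date-like symbols (26), failed or capped genes (2 to 6 per table) and genes whose listings differed by over 0.01 (relative) were dropped. Log2(FPKM + 1) ratios of palmitate over untreated WT cells, 1 per experiment, were tested with limma 3.58.1 in R 4.3.3 with an intensity trend and Benjamini-Hochberg adjustment over the 11075 genes that averaged 1 FPKM or more (2 residual and 3.86 prior degrees of freedom). The script was tested on simulated data. Pooling of replicates means that p-values measure the spread between experiments.

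The experiments pair the libraries: after gene means were removed, palmitate and untreated libraries correlated at 0.46, 0.63 and 0.70 within experiments and at -0.53 to 0.01 between experiments. Transcript GC content and length are those of the longest GENCODE transcript on GRCh37, the assembly that hg19 denotes, for 96% of tested genes. Named members are those called, the highest and lowest ratios overall and in each comparison (at 5 FPKM or more), the SDH genes, the most abundant member of each complex and isoform families; other subunits were added to describe roles, after their values were seen. Members, lists and tests were chosen with earlier results of these data known.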

Additional observations from a re-analysis of the deposited data

Results flagged for a closer look

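NDUFA4, a subunit now placed in complex IV, had a palmitate response of 0.011 (log2) in RNF213kd cells, whereas its 3 responses in WT cells were all negative (-0.04, -0.53 and -0.17). The difference from the WT response of experiment 3, 0.18 with a 95% interval from -0.996 to 1.36, did not pass the test (limma adjusted p = 1). No group had the 4 libraries that a test for an outlying library needs.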

How the results depend on the processing

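The 2 members called in the WT palmitate response kept their calls with a pseudocount of 0.1, a minimum of 5 FPKM, ratios centred on their median, no intensity trend and the length trend removed. No member was called without a filter on expression (0), where 23153 genes are tested, or without the replicate block (0), which treats the experiments as unpaired, although 14 and 6 had an unadjusted p under 0.05 in limma. With each experiment left out in turn the count ranged from 0 to 0, while 4 to 35 members had an unadjusted p under 0.05. Without small RNA and SNAR genes 8 were called: COX7A2L rose, and ATP5B, ATP5D, ATP5G3, ATP5J2, NDUFB10, NDUFV1 and SDHA fell. With the GC trend removed 7 were called. In those fits 11.3% and 15.3% of all genes were called higher, and 11.1% and 12.3% lower. The cause was not tested. The median WT response over 3 experiments, of all members and of each complex, and the members' median in each comparison between single libraries, kept their sign under every alternative tried. The median WT response of all members ran from -0.49 to -0.18. Medians of single complexes in single libraries did not all do so: with the GC trend removed, complex II had -0.19 in experiment 1, beside 0.05 without this step, and complex IV 0.007 in untreated RNF213kd over untreated WT cells, beside -0.06.

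Of 550 values for 46 named members under 12 alternatives, 513 kept direction and call, 7 gained a call, 11 lost one and 19 changed sign. Those that changed sign had not passed the test. With each experiment left out in turn, ratios ran from -0.32 to 0.10 for ATP5E, -0.51 to 0.77 for ATP5J2-PTCD1, -0.23 to 0.072 for COX6A1, -0.47 to 0.11 for COX6C, -0.15 to 0.125 for NDUFA1, -0.19 to 0.17 for NDUFB5, -0.025 to 0.37 for NDUFC2-KCTD14, -0.057 to 0.117 for NDUFS1 and -0.32 to 0.18 for UQCRB. With the GC trend removed, NDUFA7 had 0.018, NDUFB5 -0.022 and NDUFS1 -0.001. With the length trend removed, COX6A1 had 0.033, COX6C 0.017, NDUFB4 0.041 and NDUFS1 -0.050. With centred ratios UQCRB had 0.014. Depth is unknown from FPKM alone, so counting error cannot be given.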
